A study of Mus musculus with 4 samples.

Results

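The nuclear receptor superfamily was measured here as a named list of 38 genes, matched by symbol to Ensembl gene identifiers among the 50600 genes of each deposited table. All 38 were present. RNA came from mouse primary cells of strain C57BL/6NJ labelled T-helper 17 (Th17), CD4 T cells that make interleukin 17, in 4 libraries numbered as biological replicates 1 to 4. The labels record no genetic change or added agent for any library, link a protocol for differentiating CD4 T cells, leave age and developmental stage unknown, did not collect sex and give 1 donor record to all 4 libraries. Output names in the file headers carry a tag of 00hr, whose meaning the labels do not state. Nothing in them says whether the libraries came from separate animals, so p-values below measure only the spread between these libraries, which within replicates 1 and 2, and within 3 and 4, may be technical. There is 1 group and no control, so levels were compared between genes and between libraries, in TPM, a fragment count scaled for gene length and library total.

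Nuclear receptors are transcription factors with a zinc-finger domain that binds DNA and a second domain that, in many members, binds a small lipid-soluble ligand. Retinoid X receptors pair with the receptors for retinoic acid, thyroid hormone, vitamin D, oxysterols and fatty acids, while steroid receptors bind DNA mostly as pairs of themselves. With ligand many members recruit coactivators. Without it some of the RXR partners recruit corepressors, and the Rev-erb repressors do so with heme. In T cells, retinoic acid, vitamin D, glucocorticoids and oxysterols are known to act through this family, and ROR receptors act in the Th17 programme.

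Libraries held 29041979, 35018552, 48808978 and 45490373 counted fragments in replicates 1 to 4, and the 38 genes took up 0.0979% of all fragments. Markers of T cells defined the samples, with 12 of 12 listed genes at 1 TPM or more in every library and a median of 840 TPM. Markers of the Th17 label were low, with 5 of 11 at that level and a median of 0.730 TPM, while 10 of 10 naive T-cell markers reached it with a median of 690 TPM. Listed markers of other cells were scarce, with 0 of 8 for B cells, 0 of 8 for dendritic cells, 2 of 10 for monocytes or macrophages and 1 of 10 for hepatocytes, adipocytes or stroma at 1 TPM in every library. Replicates 1 and 2 held the X-inactivation transcript Xist at 224 and 215 TPM, against 0.294 and 0.445 TPM in replicates 3 and 4. The Y-linked gene Ddx3y ran the other way, at 0.439, 0.658, 97.2 and 139 TPM, and so did Eif2s3y, Kdm5d and Uty, so replicates 1 and 2 did not come from the same animals as 3 and 4 although the donor record is shared.

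Of the 38 genes, 17 were at 1 TPM or more in every library, 2 reached it in some libraries, 4 had counts but stayed below it, and 15 had 0 counts in all 4 libraries. The 17 are 44.7% of the family. Among all 21764 protein-coding genes 45.6% reached this level, so the family was detected about as often as other genes. The 15 at 0 counts are 39.5% of the family, against 36% of protein-coding genes. Each count of 0 allows up to 3 counts, which came to between 0.0191 and 0.318 TPM depending on the gene and the library, and this limit covers counting error only. In bulk RNA, fewer cells that express a gene and less RNA per cell cannot be told apart.

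**Figure D1:**
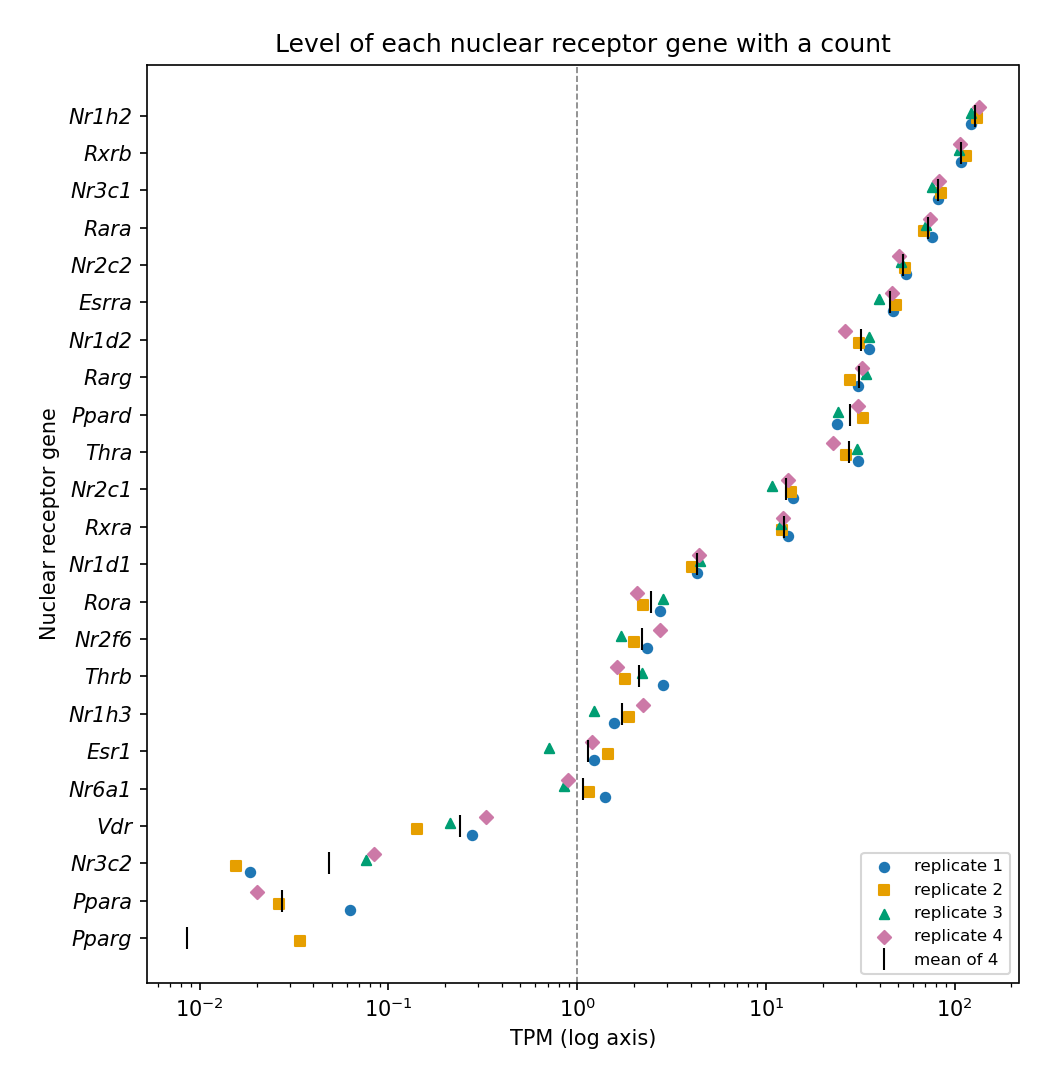
Level of the 23 nuclear receptor genes with any count, in TPM on a log axis, with 1 symbol per library, a bar for the mean of the 4 libraries and a dashed line at 1 TPM. A library at 0 counts is not drawn. Nr1h2 leads at 122 to 134 TPM, 12 genes lie above 10 TPM in every library, and Vdr, Nr3c2, Ppara and Pparg lie below 1 TPM.

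The highest member was Nr1h2, which encodes the oxysterol receptor LXR beta (ENSMUSG00000060601, mm10 chromosome 7, 44549616 to 44553951, minus strand). It stood at 122, 132, 122 and 134 TPM in replicates 1 to 4, a mean of 128 ± 6.36 TPM (SD, n = 4). Its relative Nr1h3, for LXR alpha, was at 1.58, 1.88, 1.23 and 2.25 TPM. Every library of Nr1h2 lay far above every library of Nr1h3, and within libraries the ratio was 59.9-fold to 99.4-fold. Nr1h3 is known for its role in macrophages, and the monocyte or macrophage markers summed to 11.2, 16.6, 10.8 and 14.4 TPM in the same libraries. Of those 10 markers Cd68 gave most of the sum at 11.1 ± 2.81 TPM, while Cd14 had 0 counts and Csf1r had 3, and their part in the Nr1h3 level was not tested.

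Retinoid X receptor RNA came mainly from Rxrb (ENSMUSG00000039656, chromosome 17, 34031812 to 34038393, plus strand). Rxrb was at 107, 115, 105 and 106 TPM and Rxra at 13.03, 12.2, 12.1 and 12.3 TPM, with no overlap between them. Rxrg, the form known from muscle and brain, had 0 counts. Rxrb thus held 89.7% ± 0.509 (SD, n = 4) of the summed RXR level of 121 ± 4.65 TPM. The 13 listed genes whose products pair with RXR summed to 291 ± 5.79 TPM, which is 2.41 ± 0.0949 times the RXR sum.

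Among those partners, the retinoic acid receptors followed the oxysterol receptors. Rara, for RAR alpha (ENSMUSG00000037992, chromosome 11, 98927818 to 98974942, plus strand), was at 75.5, 68.8, 70.4 and 74.2 TPM. Rarg, for RAR gamma, was lower in every library, at 30.7, 27.8, 33.8 and 32.2 TPM, and Rarb, for RAR beta, had 0 counts. The RAR sum of 103 ± 4.60 TPM varied little between libraries.

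Thyroid hormone receptor RNA was mostly Thra, at 30.7, 26.7, 30.5 and 22.6 TPM, with replicate 4 lowest. Thrb, for the beta receptor, was at 2.86, 1.78, 2.21 and 1.63 TPM, also lowest in replicate 4. Thra exceeded Thrb by 10.8-fold to 14.97-fold within libraries.

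Ppard, for the fatty acid receptor PPAR delta, was the one PPAR gene with more than a few counts. It stood at 23.9, 32.9, 24.2 and 30.6 TPM, so that replicates 2 and 4 lay above 1 and 3. Ppara, the liver and oxidative-tissue form, had 2, 1, 0 and 1 counts, and Pparg, the adipocyte regulator, had 1 count in replicate 2. Vdr, the vitamin D receptor gene that activated T cells are known to induce, had 13, 8, 17 and 24 counts, or 0.276, 0.143, 0.212 and 0.329 TPM.

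Among steroid receptors the glucocorticoid receptor gene Nr3c1 (ENSMUSG00000024431, chromosome 18, 39410545 to 39491301, minus strand) stood alone at a high level. Its 4 libraries were at 81.8, 84.9, 76.3 and 82.6 TPM, a mean of 81.4 ± 3.64 TPM (SD, n = 4). Nr3c2, the mineralocorticoid receptor gene, had 1, 1, 7 and 7 counts. Esr1, for estrogen receptor alpha, was at 1.23, 1.45, 0.711 and 1.195 TPM, below 1 TPM in replicate 3 alone. Esr2, the beta form, and Pgr, the progesterone receptor gene, had 0 counts.

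Of the estrogen-related receptors, orphans known for control of mitochondrial genes, Esrra was the sole one detected. It was at 47.0, 49.0, 39.8 and 46.5 TPM, lowest in replicate 3. Esrrb and Esrrg had 0 counts.

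The Rev-erb repressors of the circadian clock were both present. Nr1d2, for Rev-erb beta (ENSMUSG00000021775, minus strand of chromosome 14, 18204054 to 18239127), was at 35.0, 31.0, 35.1 and 26.2 TPM. Nr1d1, for Rev-erb alpha (ENSMUSG00000020889, minus strand of chromosome 11, 98767932 to 98775333), was at 4.33, 4.06, 4.48 and 4.40 TPM. The beta gene was the higher by 5.95-fold to 8.08-fold within libraries. Their activating counterpart Rora, also listed among Th17 markers, was at 2.74, 2.23, 2.84 and 2.08 TPM, and Rorb, known from the nervous system, had 0 counts. Of 15 listed clock partners, 10 reached 1 TPM in every library with a median of 5.54 TPM over the list, led by Cry1 at 48.5 ± 3.45, Per1 at 48.1 ± 9.54, Dbp at 29.0 ± 4.72 and Tef at 21.7 ± 1.78 TPM. Dbp, which the clock drives in many tissues, was at 33.3, 27.0, 32.5 and 23.3 TPM, with replicate 4 lowest. Of the 10 clock genes at 1 TPM in every library 3 were lowest in replicate 4, Dbp among them, and 2, Cry1 and Per2, were highest there.

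Orphan receptors of the NR2 and NR6 groups spanned a wide range of levels. Nr2c2, for the testicular receptor TR4 (ENSMUSG00000005893, chromosome 6, 92091390 to 92174294, plus strand), was at 55.0, 54.7, 52.1 and 50.9 TPM. Nr2c1, for TR2, was lower in every library, at 13.8, 13.7, 10.7 and 13.05 TPM. Nr2f6, whose product EAR2 is known in mice to repress Il17a, was at 2.33, 1.99, 1.70 and 2.75 TPM. Its relatives Nr2f1 and Nr2f2, the COUP-TF genes of neural and vascular development, had 0 counts. Nr6a1, the germ cell nuclear factor gene, was at 1.397, 1.15, 0.851 and 0.893 TPM. Both libraries that held Xist lay above both that held Y-linked RNA for Nr6a1, and also for Esr1. The same held for 4 of the 17 genes at 1 TPM in every library, Rxrb, Nr2c2, Esrra and Nr2c1, or 23.5%, against 23.7% of all protein-coding genes at that level. The reverse held for 2 of the 17, Rarg and Nr1d1, against 8.73% of those genes. Of the members that stayed below 1 TPM, Nr3c2 had the reverse order and Ppara the first, on 16 and 4 counts over the 4 libraries. The part of sex in these levels was not tested.

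Receptors of liver, gut and endocrine tissue were undetected. Hnf4a, Nr5a1 (steroidogenic factor), Nr5a2 (the liver receptor homologue), Nr0b2 (the small heterodimer partner) and the xenobiotic receptors Nr1i2 (PXR) and Nr1i3 (CAR) all had 0 counts in the 4 libraries. Hepatocyte markers were near 0 as well, with 0 counts of Alb and Ttr.

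In the order of mean levels, Nr1h2, Rxrb, Nr3c1, Rara, Nr2c2 and Esrra came first. Each lay above the next gene in 4 of 4 libraries with no overlap, down to Nr1d2 after Esrra. Nr1d2, Rarg, Ppard and Thra overlapped their neighbours and could not be ordered beyond their spread, and neither could Nr2c1 and Rxra. Below Nr1d1, the libraries of Rora, Nr2f6, Thrb, Nr1h3, Esr1 and Nr6a1 overlapped from one gene to the next. The 5 highest genes held 68.4% ± 0.701 (SD, n = 4) of the summed level of the family, 648 ± 15.5 TPM.

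Pairs of related receptors were compared next, as the log2 ratio of TPM + 0.1 within each library. All 13 pairs had 1 partner higher in 4 of 4 libraries. Rara exceeded Rarg by 1.21 ± 0.12 and Nr1d2 exceeded Nr1d1 by 2.84 ± 0.20 (SD, n = 4). Rxra over Rxrb was -3.12 ± 0.08, and Nr2c1 over Nr2c2 was -2.05 ± 0.15. For each pair the exact two-sided sign-flip permutation test gave p = 0.125, the smallest that 4 libraries allow (adjusted p = 0.125 over 13 pairs), so no pair could pass 0.05. Without the correction for gene length the Nr2c1 ratio was -3.75 and the Nr1d2 ratio 3.54, because Nr2c2 and Nr1d2 have the longer exon sets.

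**Figure D2:**
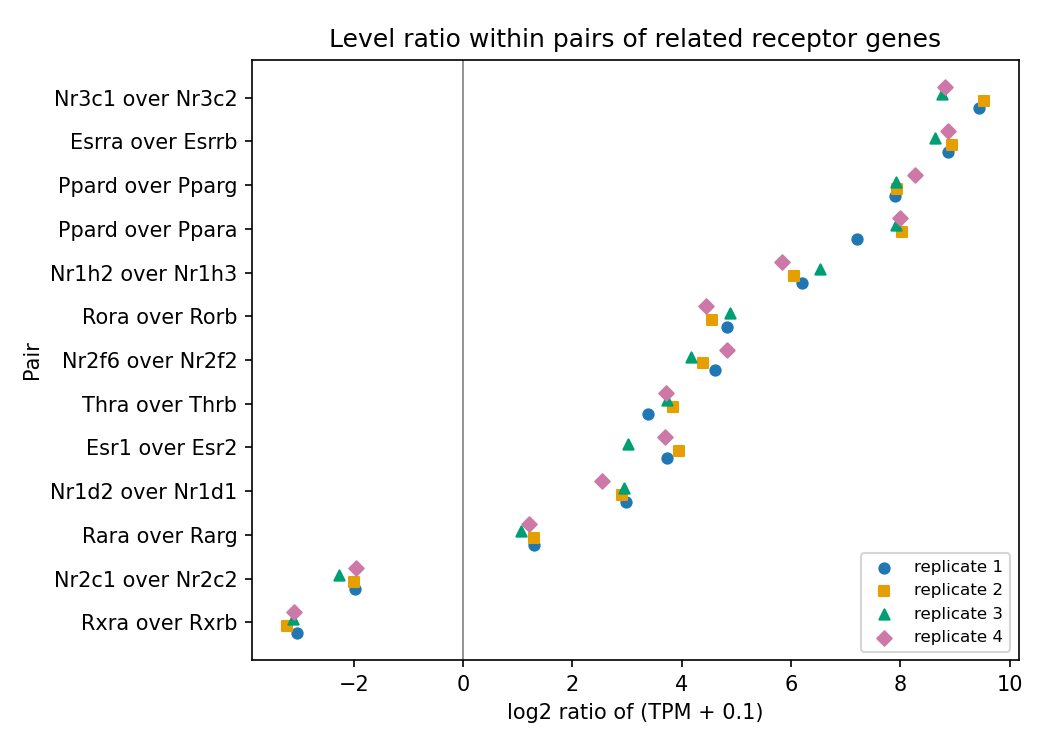
Log2 ratio of TPM + 0.1 between the first and the second gene of 13 pairs of related receptors, with 1 symbol per library and a line at a ratio of 0. Every library falls on the same side in each pair, from about -3.12 for Rxra over Rxrb to 9.13 for Nr3c1 over Nr3c2, and ratios against a partner with at most 16 counts over the 4 libraries move with the pseudocount.

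In 4 pairs the lower partner had 0 counts, and a bound was set at 3 counts per library. Esrra was at least 789-fold higher than Esrrb in each library, Rora at least 81.9-fold higher than Rorb, Nr2f6 at least 55.9-fold higher than Nr2f2 and Esr1 at least 11.3-fold higher than Esr2.

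The second question was whether the family differed between the replicates. Of the 38 genes 19 passed the count filter of the edgeR quasi-likelihood dispersion test, and 0 of these varied beyond the trend for their abundance at an adjusted p of 0.05, where 24 of 12464 genes, or 0.193%, did. DESeq2 marked 0 of 23 members as dispersion outliers, and 122 of 21421 genes. At these shares 0 was the likely count for a list of this size. At an unadjusted p under 0.05, edgeR gave 3 of the 19 against 5.34% of all genes. These 3 were Ppard, Nr1d2 and Thra, with edgeR adjusted p = 0.770, 0.885 and 0.909 in that order. The count was 1 without replicate 3 and 2 without replicate 2. Without replicate 4 it was 2, with Esr1 in and Nr1d2 and Thra out.

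Spread differed among the 17 genes at 1 TPM in every library. The highest library exceeded the lowest by 1.08-fold to 1.82-fold, with a median of 1.23-fold, where all protein-coding genes at that level had a median of 1.16-fold. Nr2c2 and Rxra were the steadiest at 1.08-fold each, and Nr1h3 at 1.82-fold, Thrb at 1.75-fold and Nr2f6 at 1.62-fold spread most. Those last genes had few counts, from 33 to 73 for Nr1h3. Counting error alone would give a coefficient of variation of 14.8% there, against 25.0% observed, whereas for Ppard it would give 2.70% against 16.2%.

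**Figure D3:**
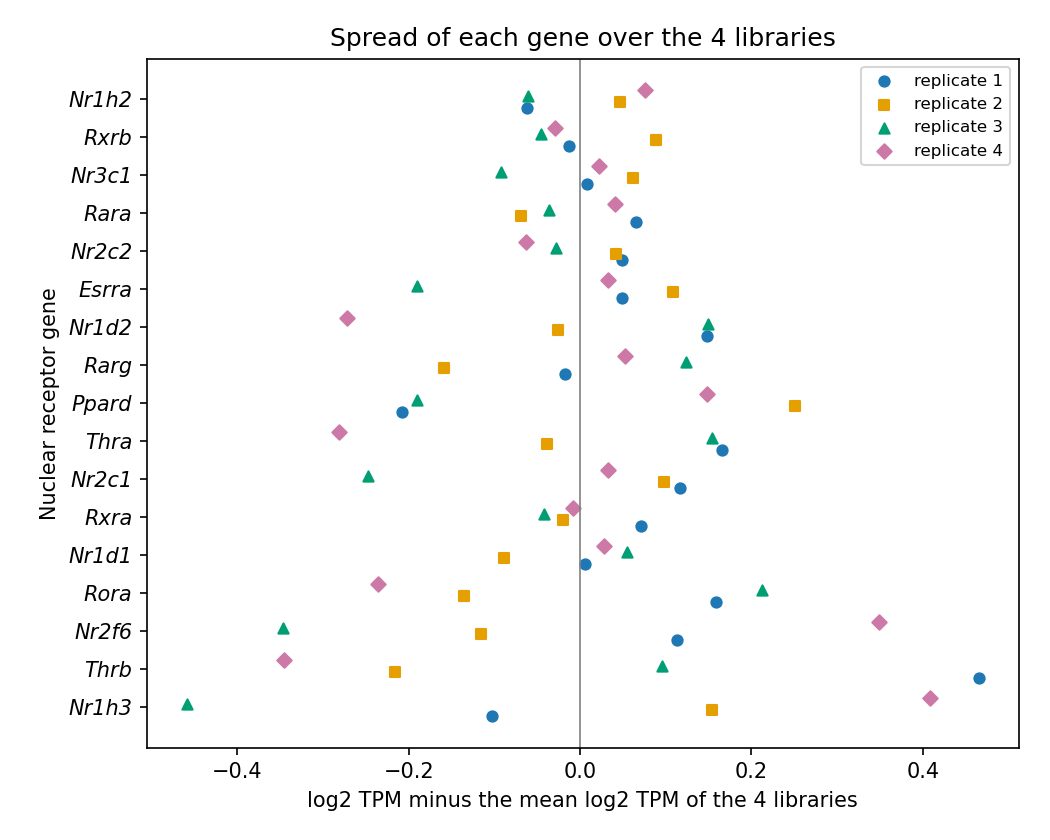
Deviation of each library from the mean log2 TPM of the 4 libraries, for the 17 nuclear receptor genes at 1 TPM or more in every library, in order of mean level. Nr1d2, Thra, Rora and Thrb have replicates 1 and 3 to the right and 2 and 4 to the left, Ppard has the reverse, and Rxra and Nr2c2 stay close to 0.

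Nr1d2, Thra, Rora and Thrb each had replicates 1 and 3 above replicates 2 and 4. On the log2 scale Thra deviated from its mean by 0.17, -0.04, 0.15 and -0.28 and Nr1d2 by 0.15, -0.03, 0.15 and -0.27. This arrangement held for 4 of the 17 genes, or 23.5%, and for 23.6% of all protein-coding genes at that level, so it was not particular to the family. Another 4 of the 17 had replicates 2 and 4 above 1 and 3, as did 26.6% of those genes.

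Position in the genome linked several members. Thra, Nr1d1 and Rara lie together on chromosome 11, with 152 kb between Nr1d1 and Rara, and their relatives Rarb, Thrb and Nr1d2 lie farther apart on chromosome 14, with 166 kb between Thrb and Nr1d2 and 1085 kb between Rarb and Thrb. On chromosome 11 all 3 genes were above 1 TPM in every library, while on chromosome 14 Rarb had 0 counts and Nr1d2 was the highest. Nr5a1 and Nr6a1 are 8.83 kb apart on the minus strand of chromosome 2, and the first had 0 counts where the second had 506 counts over the 4 libraries.

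Thra and Nr1d1 run in opposite directions and share 263 exon bases at their 3-prime ends, which is 5.70% of the Thra exons and 8.55% of those of Nr1d1. Counting was by strand, per the file headers, so each fragment was given to 1 of the pair. Larger overlaps with opposite-strand genes were those of Nr1i3 with Tomm40l, over 74.9% of the Nr1i3 exons, of Nr2f6 with Ocel1, over 54.4%, and of Nr2c2 with Mrps25, over 30.7%. Nr1i3 had 0 counts although Tomm40l had 5110 over the 4 libraries, so no fragment from that opposite-strand gene was counted on the Nr1i3 strand.

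Start-site sequence was then set beside level. RefSeq promoter windows of GRCm38.p6 were available for 35 of the 38 genes, and the 250 bases before each start were used. They are shown for 4 genes picked as examples, 2 at 50.9 TPM or more in every library and 2 at 0 counts. Each has a single listed start and no annotated exon in the window. They read in the direction of transcription, and capitals mark CpG dinucleotides. The Nr2c2 window precedes the listed RefSeq start but lies inside the span of the counted gene, which begins at 92091390.
Nr1h2 (chr7:44553966-44554215, minus strand): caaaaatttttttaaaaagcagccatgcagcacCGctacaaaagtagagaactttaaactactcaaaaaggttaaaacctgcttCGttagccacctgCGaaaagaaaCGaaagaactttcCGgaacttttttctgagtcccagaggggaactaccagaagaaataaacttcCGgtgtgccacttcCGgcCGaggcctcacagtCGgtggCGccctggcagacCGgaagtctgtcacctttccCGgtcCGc
Nr2c2 (chr6:92092183-92092432, plus strand): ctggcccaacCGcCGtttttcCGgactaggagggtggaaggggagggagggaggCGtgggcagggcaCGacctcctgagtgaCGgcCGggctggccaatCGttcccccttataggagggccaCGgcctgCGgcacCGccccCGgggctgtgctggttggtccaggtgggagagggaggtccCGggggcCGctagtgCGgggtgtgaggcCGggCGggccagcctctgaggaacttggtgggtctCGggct
Nr0b2 (chr4:133553126-133553375, plus strand): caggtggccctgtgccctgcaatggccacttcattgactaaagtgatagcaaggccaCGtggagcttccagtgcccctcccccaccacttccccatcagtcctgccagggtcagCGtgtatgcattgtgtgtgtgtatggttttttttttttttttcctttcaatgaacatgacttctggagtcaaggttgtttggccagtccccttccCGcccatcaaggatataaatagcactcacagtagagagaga
Nr1i2 (chr16:38294825-38295074, minus strand): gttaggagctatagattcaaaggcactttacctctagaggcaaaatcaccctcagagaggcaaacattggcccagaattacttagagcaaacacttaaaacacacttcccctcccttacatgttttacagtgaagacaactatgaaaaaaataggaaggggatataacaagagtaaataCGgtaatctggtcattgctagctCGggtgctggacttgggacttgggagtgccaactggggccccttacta
The windows of Nr1h2 and Nr2c2 held 13 and 18 CpG dinucleotides, and those of Nr0b2 and Nr1i2 held 3 and 2. Other genes at 0 counts with a single start varied, with 16 in Rarb, 12 in Esr2, 4 in Pgr, 2 in Nr1i3 and 1 in Nr2f2.

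Over the family, the 15 genes at 1 TPM in every library with a window had a median CpG observed over expected ratio of 0.772, and the 14 at 0 counts had a median of 0.322. The same medians over all protein-coding genes with a window were 0.744 for 7980 genes at 1 TPM in every library and 0.212 for 5612 genes at 0 counts. The medians of the family thus lay in the same order as those of all genes. The classes overlapped, since Esrrg and Rarb had ratios of 0.862 and 0.767 with 0 counts, and Nr1h3 and Rara had 0.318 and 0.340 with counts.

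**Figure D4:**
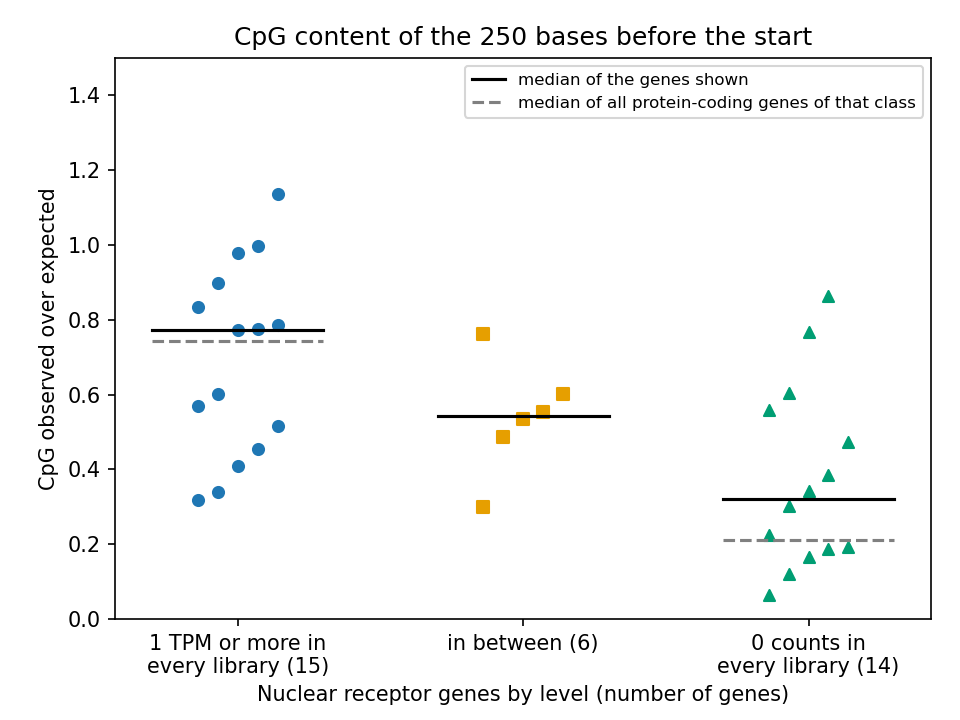
CpG observed over expected ratio in the 250 bases before the start, as the mean over listed starts, for 15 nuclear receptor genes at 1 TPM or more in every library, 6 in between and 14 at 0 counts. Solid bars are medians of the genes shown, at 0.772, 0.544 and 0.322, and dashed bars are medians of all protein-coding genes of the same class.

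The 6-letter receptor half-site AGGTCA was present on either strand in the windows of 8 of the 35 genes, or 22.9%, and of 14.5% of all 16469 protein-coding genes with a window. These 8 were Nr1d2, Rarg, Rxra, Thrb, Nr6a1, Pparg, Nr5a2 and Rxrg, of which 4 were at 1 TPM in every library. The E-box CACGTG was in 5 of 35, or 14.3%, and in 7.83% of all, and the GC box GGGCGG was in 20 of 35, or 57.1%, and in 47.6% of all. A match describes these letters alone.

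Genes whose products work with the receptors were nearly all present. Of 24 listed coactivators 22 reached 1 TPM in every library with a median of 54.7 TPM, led by the Mediator subunit gene Med12 at 179 ± 7.81, the steroid receptor coactivator gene Ncoa3 at 145 ± 9.50, the chromatin remodeller gene Smarca4 at 124 ± 4.32 and the acetyltransferase gene Kat2a at 110 ± 6.05 TPM. Of 15 corepressors 13 did, with a median of 72.0 TPM, led by Gps2 at 227 ± 8.88, the receptor corepressor gene Ncor1 at 169 ± 6.88, Hdac1 at 118 ± 2.05 and Tbl1x at 106 ± 3.16 TPM. These shares of 91.7% and 86.7% stand beside the 45.6% of all protein-coding genes. The edgeR dispersion test called 0 of the 22 coactivator and 0 of the 13 corepressor genes tested, where it called 0.193% of all genes. At that share 0 calls were likely in lists of this size.

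Chaperones that hold steroid receptors ready for ligand were all present, and some differed between libraries. The 16 listed genes summed to 3766, 4651, 4267 and 7279 TPM, with replicate 4 highest. The edgeR dispersion test called 6 of the 16, where it called 0.193% of all genes. The list was chosen with earlier results of these data known, so these shares do not test it. Heat shock genes outside the list were called too, such as Hsph1 (edgeR adjusted p = 0.000273) and Dnaja1 (edgeR adjusted p = 0.0113). The calls were thus not particular to receptor chaperones. Among the 6, the lowest adjusted p was that of Stip1, a cochaperone gene at 143, 227, 166 and 457 TPM (edgeR adjusted p = 0.00719). The most abundant was Hsp90ab1 at 1557, 1846, 1762 and 3162 TPM (edgeR adjusted p = 0.0483). Hsp90aa1, Hspa8, Dnajb1 and Fkbp4 were the others, each highest in replicate 4. Stip1 was the 1 call left with a mean CPM filter of 5 or with a fit that was not robust. The count was 4 without replicate 1 or 2, 2 without replicate 3 and 5 without replicate 4, when Fkbp5 was in and Hsp90aa1 and Hsp90ab1 were out. Nr3c1, which depends on this machinery, was at 82.6 TPM in that library, within the 76.3 to 84.9 TPM of the other 3. Without replicate 4 the test still called no member of the family.

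Of 20 genes known to respond to glucocorticoids in other settings, 14 reached 1 TPM in every library, with a median of 49.1 TPM. The highest were Txnip at 1460 ± 277, Il7r at 803 ± 185, Ddit4 at 723 ± 126 and the leucine zipper gene Tsc22d3 at 435 ± 84.4 TPM. Cxcr4, for a chemokine receptor, was the 1 gene of 17 tested that the edgeR dispersion test called, at 209, 404, 216 and 388 TPM (adjusted p = 0.0368). Fkbp5, a receptor cochaperone gene named here after its values were seen, was at 32.0, 47.2, 32.6 and 52.9 TPM and was not called (adjusted p = 0.134). The Cxcr4 call was lost with that CPM filter, with that fit and without replicate 1, 2 or 3. Without replicate 4 the test called 6 genes of the list, Cxcr4, Ddit4, Fkbp5, Il7r, Per1 and Tsc22d3. Calls over all genes rose as well in that setting, to 86 of 12472 from 24 of 12464. Cxcr4 and Fkbp5 had replicates 2 and 4 above 1 and 3. So had 6 of the 14 genes at 1 TPM in every library and 13 of the 16 chaperone genes, in lists chosen with earlier results known. Among all protein-coding genes at that level 26.6% had this order. Nr3c1 had it by 82.6 TPM in replicate 4 over 81.8 TPM in replicate 1, with a range of 1.11-fold. A link between these genes was not tested. Others of the list, such as Txnip and Dusp1, were lowest in replicate 4. Without a control these levels do not show whether hormone had acted.

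**Figure D5:**
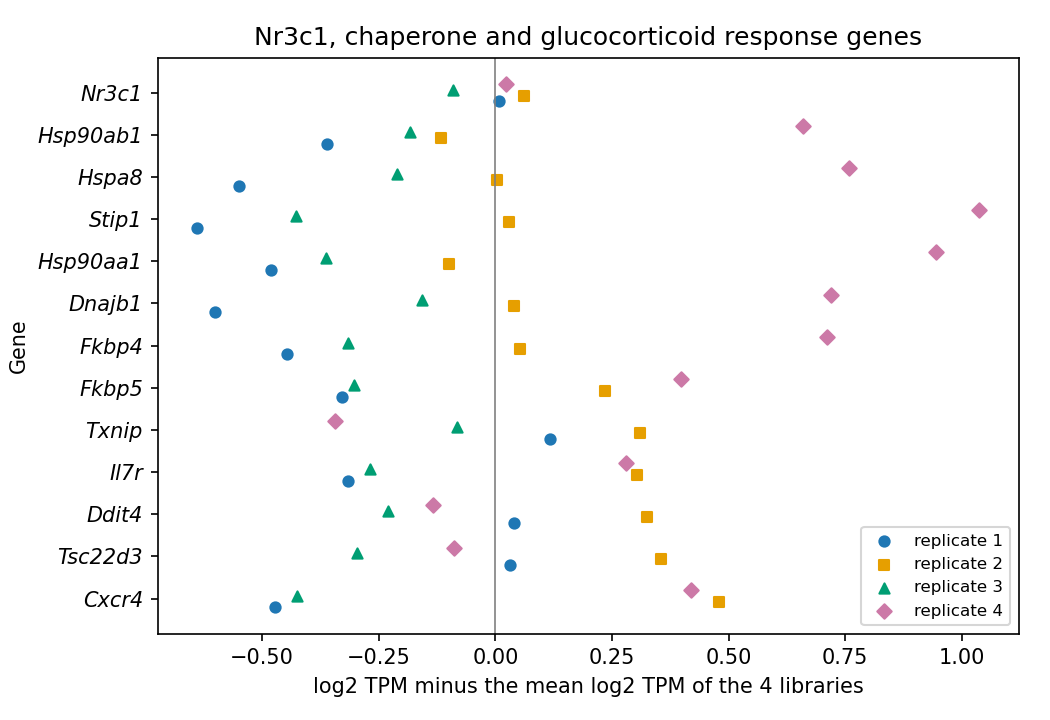
Deviation of each library from the mean log2 TPM of the 4 libraries for Nr3c1, the 6 chaperone genes called by the edgeR dispersion test, the cochaperone gene Fkbp5 and 5 listed glucocorticoid response genes. Replicate 4 lies far to the right for the chaperone genes, farthest for Stip1 at 457 TPM, while the 4 libraries of Nr3c1 lie close together at 76.3 to 84.9 TPM.

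Target genes of the oxysterol and fatty acid receptors reached 1 TPM in every library in 75.0% and 65.0% of cases, against 45.6% of all protein-coding genes. Of 20 liver X receptor targets 15 reached 1 TPM in every library, with a median of 27.5 TPM, led by Arl4c at 386 ± 36.6, Smpdl3a at 145 ± 16.1, the cholesterol exporter gene Abcg1 at 102 ± 11.3 and the fatty acid synthase gene Fasn at 97.9 ± 6.26 TPM. Of 20 PPAR target genes 13 did, with a median of 19.8 TPM, led by Ucp2 at 290 ± 18.8, Acadvl at 145 ± 8.75, Acaa2 at 143 ± 7.74 and Cpt1a at 90.3 ± 27.0 TPM. The edgeR dispersion test called 0 of the 15 and 0 of the 13 genes tested in these lists, where it called 0.193% of all genes. Cpt1a, for the carnitine transferase of fatty acid oxidation, came nearest, at 107, 110, 51.4 and 92.9 TPM (edgeR adjusted p = 0.0523).

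Genes that make or clear ligands were mostly scarce. Of 20 retinoid metabolism genes 5 reached 1 TPM in every library, namely Rdh14 at 40.1 ± 4.59, Dgat1 at 31.3 ± 2.53, Rdh11 at 26.8 ± 0.636, Rdh10 at 12.2 ± 1.94 and Rdh12 at 6.76 ± 0.217 TPM, and 7 had 0 counts. Of 7 vitamin D genes only Cyp2r1, for a vitamin D hydroxylase, did, at 4.61 ± 0.891 TPM, while Cyp24a1, the vitamin D target that degrades the hormone, had 0 counts. Of 10 thyroid hormone genes only the transporter gene Slc16a10 did, at 8.76 ± 0.874 TPM, and the deiodinase genes Dio1 and Dio3 had 0 counts where Dio2 had 24.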

How the data were processed

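RNA-seq was measured in 4 libraries of 1 group. Each deposited table gives whole-number fragment counts. Per the file headers, the authors counted pairs with both ends mapped, in the reverse-strand setting, over GENCODE M13 exons (mm10), using featureCounts 1.4.6-p4. No option for fragments that map to several places or genes appears there, so such fragments were left out. The labels call the assay total RNA-seq, while the linked library protocol is titled as poly(A)+. No source used here gives the version of the aligner. The deposited exon length in bases, a measure of other kind, was used with the counts to compute TPM. Symbols came from GENCODE M21 for 50376 IDs and 224 had none. The members and gene lists were chosen with earlier results of these data known. All 38 members are described, and of each list the 4 highest genes and any called gene, while Cpt1a, Dbp, Per2, Dusp1, Fkbp5, Rdh12, Cyp24a1, the deiodinase genes and single marker genes were named after their values were seen. Spread between replicates was tested with edgeR 4.0.16 in R 4.3.3 (intercept-only design, TMM, filterByExpr, robust fit, one-sided F test of the quasi-dispersion against its trend, with the prior degrees of freedom of genes that are not outliers, Benjamini-Hochberg over all genes), which was tested on simulated data. DESeq2 1.42.0 was an alternative. Alternatives covered thresholds, filters, scaling, pseudocounts, length correction and leaving out each replicate. Python 3.11.15 served for the other steps.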

Additional observations from a re-analysis of the deposited data

Results flagged for a closer look

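Among 95 values examined over the 4 libraries, 7 had 1 library far from the other 3 by Dixon's ratio, or 7.37%, where chance gives about 5%. The log2 ratio of Nr2c1 over Nr2c2 was -2.27 in replicate 3 against -1.99 to -1.96 in the others. For Ppard over Ppara it was 7.21 in replicate 1 against 7.92 to 8.03, and for Ppard over Pparg it was 8.26 in replicate 4 against 7.91 to 7.94. Both rest on at most 2 counts of the lower partner per library. Pparg itself was at 0.0341 TPM in replicate 2, from 1 count, and at 0 in the others. Acaa2 was at 131 TPM in replicate 4 against 146 to 148 TPM, and Rdh14 was at 46.9 TPM in replicate 3 against 36.9 to 38.5 TPM. The summed level of the 11 Th17 markers, Rora among them, was 30.3 TPM in replicate 1 against 18.5 to 20.3 TPM.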

How the results depend on the processing

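The count of members at 1 TPM in every library, 17 in the report, was 19 at 0.5 TPM, 14 at 2 TPM, 19 when 1 library sufficed, 18 at a CPM of 1 with no length correction, and 17 to 18 without each replicate in turn. All 13 pair ratios kept their direction under every alternative run. Ratios with a scarce partner moved with the pseudocount, such as Nr3c1 over Nr3c2 at 6.30 with a pseudocount of 1 and 10.7 with 0.01. The count of members that varied beyond the trend stayed 0 under every alternative run, DESeq2 included. With 13 to 23 members tested and few genes called over all, 0 was the likely count in each setting and does not set the family apart. The count over all genes, 24 in the report, was 349 with no filter, 5 when a mean CPM of at least 5 was required, 5 when the fit left out robust estimation, 122 as DESeq2 dispersion outliers, and 7 to 86 without each replicate, with 7 without replicate 3, 13 without replicate 2 and 86 without replicate 4. The counts of chaperone genes, of glucocorticoid response genes and of members at an unadjusted p under 0.05 were followed under the same settings after the data were seen, and DESeq2 marked 8 chaperone and 4 response genes. With no filter these were 8 and 9, with 4 members. TPM over nuclear protein-coding genes raised every level by 1.13 to 1.14 times. No paired analysis was possible because there is 1 group. Depth limits the 15 members at 0 counts to at most 0.318 TPM per library.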
